A study of Mus musculus with 12 samples.

Results

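RNA-seq read counts of 8 genes for kainate and delta glutamate receptors were compared in mouse hippocampus between 6 libraries labelled Wildtype and 6 labelled Gadd45a-KO. The genes are the kainate receptor subunits *Grik1*, *Grik2*, *Grik3*, *Grik4* and *Grik5*, the delta receptor subunit *Grid1*, and the auxiliary subunits *Neto1* and *Neto2*. They were found by symbol through their Ensembl IDs among 37991 genes, and all 8 were among the 16399 genes that passed the expression filter and were tested. Each library came from the hippocampus of a C57BL/6N mouse of 6 to 7 months, taken 1 h after the passive avoidance (PA) test, in which an animal learns to stay out of a chamber where it received a foot shock. The Gadd45a-KO line carries a neomycin cassette driven by the PGK promoter in place of the first exons of *Gadd45a* in every cell, and the last exon is still present. Wildtype mice were siblings from matings of heterozygotes. Every animal of both labels had gone through PA, so the data hold no untrained mouse.

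Between 44594261 and 55540601 reads per library fell on genes. *Gadd45a* itself (ENSMUSG00000036390), which codes for a small protein of stress responses and DNA demethylation, had 2.19 to 3.43 CPM, the read count scaled to the size of the library, in the libraries labelled Wildtype and 20.5 to 23.1 CPM in those labelled Gadd45a-KO. The level was thus higher, not lower, under the Gadd45a-KO label, by 3.06 on the log2 scale (SE 0.09, adjusted p = 1.33e-10, edgeR quasi-likelihood test, Benjamini-Hochberg adjusted like every adjusted p here). Counts per gene cannot show whether these reads came from the last exon, which is still present, and libraries are therefore named by label. Replicates 2 and 3 labelled Gadd45a-KO stood apart, with a summed level of 9 thalamic markers of 346 and 518 CPM, against 99.8 to 146 CPM in the other 10 libraries. Replicate 3 also had 6653 CPM of 4 oligodendrocyte markers, against 2111 to 3425 CPM in the other 11. Markers of CA1, CA3 and dentate granule cells were read in every library. The 4 CA1 markers summed to 364 to 486 CPM (median 430) in the libraries labelled Wildtype. In those labelled Gadd45a-KO they summed to 253 to 543 CPM (median 344), and all 4 had a log2 fold change below 0. None of the thalamic and oligodendrocyte markers had one below 0 (medians 0.91 and 0.45). No marker of 11 cell type lists was called between the labels at a false discovery rate of 1%, beside 2.62% of all tested genes called lower and 0.0244% higher.

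Kainate receptors are glutamate-gated cation channels. GluK1, GluK2 and GluK3, from *Grik1*, *Grik2* and *Grik3*, can form channels by themselves, whereas the high-affinity subunits GluK4 and GluK5, from *Grik4* and *Grik5*, reach the membrane as channels only together with them. In the hippocampus these receptors are best known at the synapses of mossy fibres, the axons of dentate granule cells, onto CA3 pyramidal cells, and on interneurons. Neto1 and Neto2 bind the channels and slow their gating. GluD1, from *Grid1*, resembles these subunits but acts mainly as an adhesion protein that links to presynaptic terminals through secreted cerebellins.

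The pore loop shows how close the 6 channel subunits are to each other and holds the site at which RNA editing changes the channel. The codon in capitals is the glutamine codon of the pore. In *Grik1* and *Grik2* it is the Q/R site, where ADAR enzymes edit the RNA so that it is read as arginine. Each sequence is 42 bases of coding sequence of the NCBIM37 genome, given 5′ to 3′ on the strand of the gene.
Grik1: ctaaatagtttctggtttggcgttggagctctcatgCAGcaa
Grik2: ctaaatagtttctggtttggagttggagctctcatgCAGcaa
Grik3: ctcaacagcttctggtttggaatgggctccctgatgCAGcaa
Grik4: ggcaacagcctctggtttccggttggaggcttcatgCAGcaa
Grik5: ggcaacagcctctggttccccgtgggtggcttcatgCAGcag
Grid1: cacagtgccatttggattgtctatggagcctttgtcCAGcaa

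The stretches lie at chr16:87940784-87940825 (minus strand) for *Grik1*, chr10:48964132-48964173 (minus) for *Grik2*, chr4:125368415-125368456 (plus) for *Grik3*, chr9:42355703-42355744 (minus) for *Grik4*, chr7:25807513-25807554 (minus) for *Grik5* and chr14:36263540-36263581 (plus) for *Grid1*. All 6 are exonic and coding. *Grik1* and *Grik2* shared 41 of the 42 bases, and *Grik4* and *Grik5* shared 37. *Grik3* was nearest to *Grik2*, with 33 identical bases, and *Grid1* shared 21 to 25 with the kainate subunits. The exon ended 4 bases after the glutamine codon in *Grik1*, *Grik2*, *Grik3* and *Grid1*, but 56 bases after it in *Grik4* and *Grik5*, so that the gene structure separated the high-affinity pair from the rest as well. Even so, few stretches of the read length were shared along whole transcripts. Of the 51-base windows, 0.392% in *Grik3*, 0.154% in *Grik4* and 0.504% in *Grid1* also occurred in protein-coding transcripts of other genes. None did in the other 5, and noncoding transcripts were not searched. No exon of the 8 genes overlapped another annotated gene on either strand. Editing is not visible in counts per gene and was not analysed here.

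Levels of different genes were compared as RPKM, the CPM divided by the length of the annotated exons in kilobases. Reads outside annotated exons did not count toward it. The paper reports transcripts that run past their annotated 3′ ends, and read coverage that falls away from the 3′ end. Whether this affected the 8 genes was not tested, so the ranks, and the shares given further below, hold for annotated exons only. The high-affinity subunit *Grik5* stood highest of the 8 genes, at 61.7 ± 6.05 RPKM (SD, n = 6) in the libraries labelled Wildtype and 59.4 ± 4.20 in those labelled Gadd45a-KO. *Neto1* followed, with 25.0 ± 3.10 and 21.3 ± 2.43 RPKM. Over the annotated exons, these ranks did not overlap each other or any other gene in any library.

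The middle of the order was crowded. *Grik4* had 12.2 ± 1.87 and 13.5 ± 1.61 RPKM, *Grid1* 12.8 ± 0.280 and 12.5 ± 0.576, *Neto2* 10.5 ± 1.26 and 9.78 ± 0.978, and *Grik2* 10.7 ± 1.02 and 9.02 ± 1.07, each given for Wildtype and then Gadd45a-KO. *Grik4* overlapped *Grid1*, and *Neto2* overlapped *Grik2*, within both labels, so neither pair can be ordered. *Grik2* also depended on the length taken for it, since its annotated exons sum to 8273 bases while its longest transcript has 4800. With the longest transcript of each gene, *Grik2* had 18.4 ± 1.75 and 15.5 ± 1.85 RPKM and came directly after *Neto1* by its mean, although it overlapped *Neto1* in the libraries labelled Wildtype (16.0 to 21.2 against 20.9 to 30.2 RPKM). The lowest places were *Grik3*, at 5.80 ± 0.414 and 5.50 ± 0.635 RPKM, and *Grik1*, a subunit known from interneurons and sensory neurons, at 2.46 ± 0.121 and 2.63 ± 0.373.

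**Figure D1:**
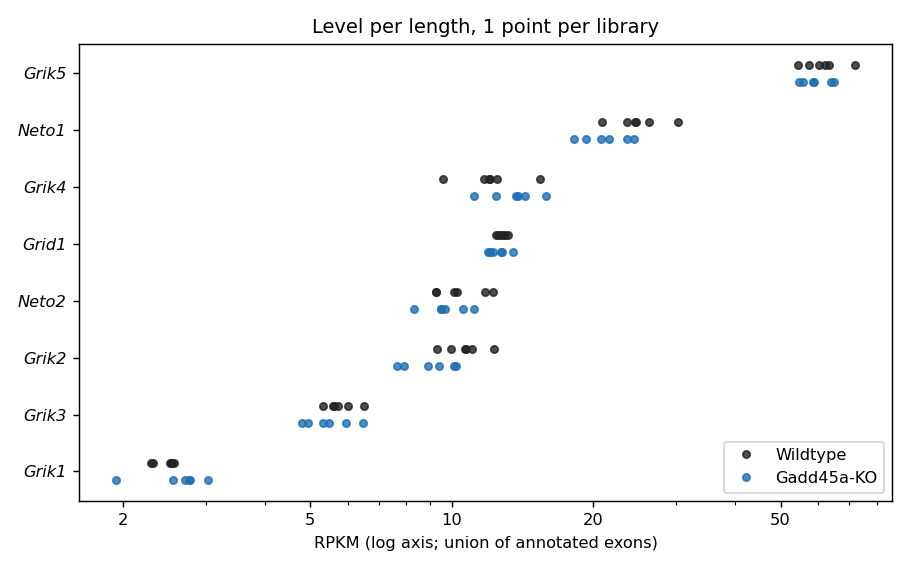
RPKM of each gene on a log axis, with 1 point per library, black for Wildtype and blue for Gadd45a-KO, over the union of annotated exons. *Grik5* lies alone at the right, between 54.5 and 72.1 RPKM, and *Grik1* alone at the left, between 1.93 and 3.03 RPKM, while *Grik4*, *Grid1*, *Neto2* and *Grik2* share the middle.

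The next question was whether the genes differed between the labels, which name the *Gadd45a* genotype of the mouse after PA. Every direction below rests on these labels, although reads on *Gadd45a* itself were higher under the Gadd45a-KO label. Whether those reads came from the last exon was not tested. None of the 8 was called at a false discovery rate (FDR) of 1% by edgeR's quasi-likelihood test, while among all tested genes 2.62% were called as lower under the Gadd45a-KO label and 0.0244% as higher. None passed at an FDR of 5% either, where edgeR called 4.55% of all tested genes. At an FDR of 1%, DESeq2 called 4.16% of all tested genes in either direction and 0 of the 8. At an unadjusted p under 0.05, *Grik2* and *Neto1* were lower by edgeR and by DESeq2, as were 9.35% of all tested genes by edgeR and 8.9% by DESeq2. None of the 8 was higher at that level, against 4.34% of all tested genes. Of the 8 log2 fold changes, 6 were below 0, with a median of −0.06, beside 48.2% below 0 and a median of 0.00 over all tested genes. In none of the 8 did the CPM of the labels separate completely, which they did in 3.31% of all tested genes. Levels below are in CPM, and each fold change is Gadd45a-KO over Wildtype. In such bulk tissue, fewer cells of a type and less RNA per cell cannot be told apart.

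**Figure D2:**
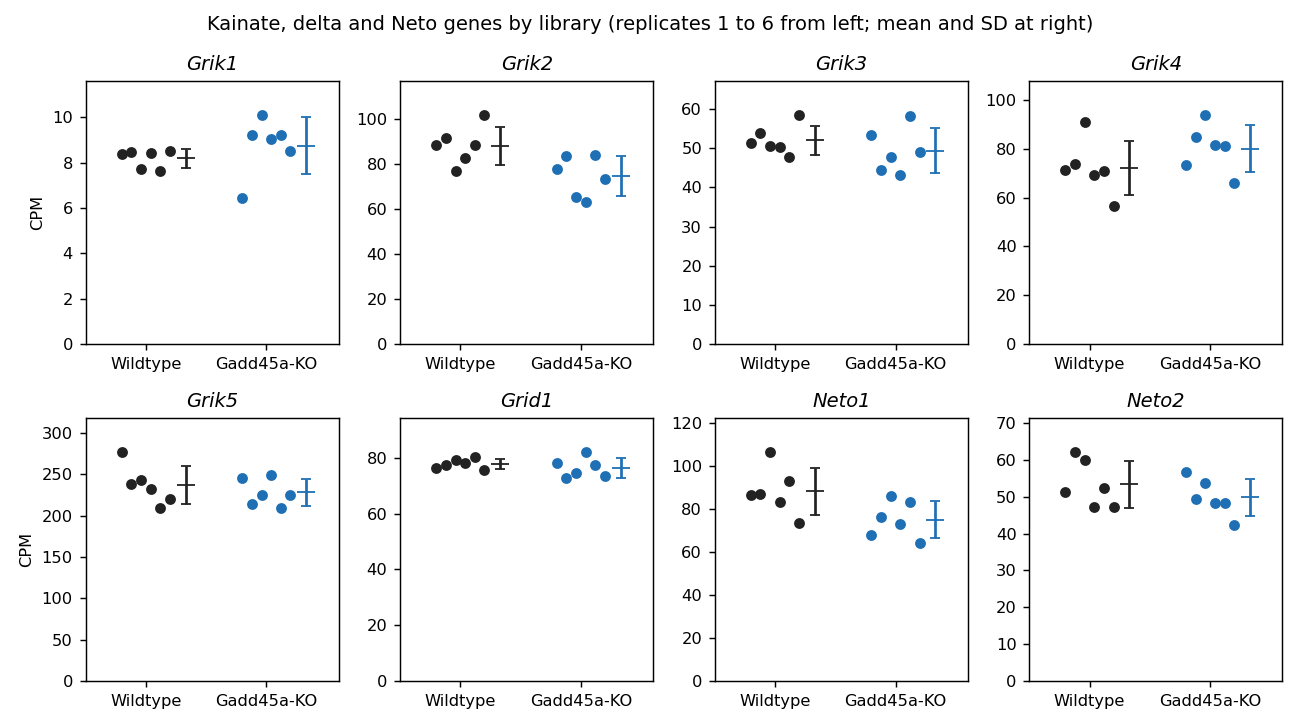
CPM of the 8 genes in each library, with replicates 1 to 6 of each label from left to right and the mean with SD beside them (each axis starts at 0). All 6 points of *Grik2* and of *Neto1* labelled Gadd45a-KO lie below the Wildtype mean of 88.2 and 88.4 CPM, yet in every panel the labels overlap.

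Among the subunits that form channels by themselves, *Grik2* (chr10:48819266-49508572, minus strand) differed most. It codes for GluK2, the main such subunit of principal neurons. The libraries labelled Wildtype had a lowest, median and highest value of 76.8, 88.5 and 102 CPM, and those labelled Gadd45a-KO 63.3, 75.6 and 84.2 CPM. All 6 libraries labelled Gadd45a-KO lay below the Wildtype mean, and 3 of them below every Wildtype library. The log2 fold change was −0.24 (SE 0.08, 95% interval −0.41 to −0.07, unadjusted p = 0.00816), a difference of −15.5%. After adjustment over all genes it did not pass (adjusted p = 0.131, edgeR's quasi-likelihood test), and the two-sided exact permutation p was 0.0260, unadjusted, where 0.00216 is the smallest possible. From 3076 to 5089 reads per library fell on *Grik2*, and the spread between mice was larger than counting error.

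The 4 dentate granule markers varied together with *Grik2*. Their summed level was 290 to 423 CPM in the libraries labelled Wildtype (median 369) and 184 to 384 CPM in those labelled Gadd45a-KO (median 338). All 4 had a log2 fold change below 0, and none was called. With their level as a covariate, an alternative chosen after seeing the data, the log2 fold change of *Grik2* was −0.17 (adjusted p = 0.143, edgeR's quasi-likelihood test). With the level of 4 CA1 markers as a covariate, also chosen after seeing the data, it was −0.31 (adjusted p = 0.0465, edgeR's quasi-likelihood test). Without Gadd45a-KO replicates 2 and 3, the libraries with high thalamic markers (left out together after seeing the data), it was −0.24 (adjusted p = 0.208, edgeR's quasi-likelihood test).

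*Grik3* (chr4:125167944-125391417, plus strand) codes for GluK3, which forms channels of low glutamate affinity that occur on presynaptic terminals. Its lowest, median and highest values were 47.8, 50.9 and 58.4 CPM in the libraries labelled Wildtype and 43.1, 48.4 and 58.2 CPM in those labelled Gadd45a-KO. The ranges overlapped, with 3 libraries labelled Gadd45a-KO below every Wildtype library and nearly the same highest value. Its log2 fold change was −0.08 (SE 0.07, 95% interval −0.23 to 0.07, adjusted p = 0.736, edgeR's quasi-likelihood test), with an exact permutation p of 0.316. In the same replicates where *Grik2* was low or high, *Grik3* often was too. Replicate 4 was the lowest and replicate 5 the highest of the libraries labelled Gadd45a-KO for both genes, and replicate 6 was the highest of those labelled Wildtype.

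*Grik1* (chr16:87896441-88289947, minus strand) codes for GluK1 and had the fewest reads of the set, 328 to 523 per library. Values labelled Wildtype were tightly grouped at 7.62, 8.39 and 8.53 CPM (lowest, median and highest), with a coefficient of variation of 4.94%. Values labelled Gadd45a-KO were 6.43, 9.12 and 10.1 CPM, with a coefficient of variation of 14.2%. Of these, 4 libraries lay above every Wildtype library, while replicate 1 lay below all of them. For *Grik1* the log2 fold change was 0.10 (SE 0.09, 95% interval −0.09 to 0.28, adjusted p = 0.734, edgeR's quasi-likelihood test), and the exact permutation p was 0.446. Without Gadd45a-KO replicate 1 it was 0.18 (adjusted p = 0.149, edgeR's quasi-likelihood test), and without Gadd45a-KO replicates 2 and 3 it was 0.02.

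Of the high-affinity subunits, *Grik4* (chr9:42326218-42752576, minus strand), which codes for GluK4, a subunit typical of CA3 pyramidal cells, had the widest spread. The libraries labelled Wildtype had 56.5, 71.1 and 91.0 CPM as lowest, median and highest values, and those labelled Gadd45a-KO 65.9, 81.2 and 93.6 CPM. Replicate 6 was lowest and replicate 3 highest under both labels, and 5 of 6 libraries labelled Gadd45a-KO lay above the Wildtype mean. The log2 fold change was 0.15 (SE 0.10, 95% interval −0.06 to 0.36, adjusted p = 0.579, edgeR's quasi-likelihood test), with an exact permutation p of 0.203. It was 0.23 without Wildtype replicate 3 and 0.09 without Wildtype replicate 6. Without Gadd45a-KO replicates 2 and 3 it was 0.06, and with the thalamic marker level as a covariate 0.08. The summed level of 4 CA3 markers was alike, at 154 to 187 CPM in the libraries labelled Wildtype and 162 to 180 CPM in those labelled Gadd45a-KO. Taken singly, 1 of the 4 had a log2 fold change below 0, their median was 0.12, and none was called.

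*Grik5* (chr7:25794872-25857388, minus strand), which codes for GluK5, the most widely expressed high-affinity subunit in the brain, rested on 9673 to 13243 reads per library. Its lowest, median and highest values were 209, 235 and 277 CPM in the libraries labelled Wildtype and 210, 225 and 249 CPM in those labelled Gadd45a-KO. The ranges coincided but for the highest Wildtype library, replicate 1. Between the labels the log2 fold change was −0.05 (SE 0.06, 95% interval −0.19 to 0.08, adjusted p = 0.813, edgeR's quasi-likelihood test), the exact permutation p was 0.491, and without Wildtype replicate 1 the log2 fold change was 0.01.

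*Grid1* (chr14:35633011-36396565, plus strand), the delta receptor, was the most even of the 8 genes. The libraries labelled Wildtype had 75.7, 77.8 and 80.1 CPM (lowest, median and highest), a coefficient of variation of 2.19%, and those labelled Gadd45a-KO 72.7, 76.0 and 82.0 CPM, a coefficient of variation of 4.59%. The labels overlapped, and the log2 fold change was −0.03 (SE 0.03, 95% interval −0.10 to 0.05, adjusted p = 0.833, edgeR's quasi-likelihood test), with an exact permutation p of 0.372. Its interval was the narrowest of the set.

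The auxiliary subunits gave values on the side of *Grik2*. *Neto1* (chr18:86564344-86671289, plus strand), whose protein also associates with NMDA receptors, had 73.8, 86.8 and 107 CPM (lowest, median and highest) in the libraries labelled Wildtype and 64.1, 74.7 and 86.3 CPM in those labelled Gadd45a-KO. Every one of the 6 values under the Gadd45a-KO label was below the Wildtype mean, and 3 were below each Wildtype library. The log2 fold change was −0.23 (SE 0.09, 95% interval −0.42 to −0.05, unadjusted p = 0.0164), a difference of −14.9%. It did not pass after adjustment over all genes (adjusted p = 0.201, edgeR's quasi-likelihood test), and the exact permutation p was 0.0368, unadjusted. Without Gadd45a-KO replicates 2 and 3 the log2 fold change was −0.29 (adjusted p = 0.151, edgeR's quasi-likelihood test). The 4 microglia markers moved opposite to *Neto1* across libraries and summed to 204 to 227 CPM in the libraries labelled Wildtype and 216 to 247 CPM in those labelled Gadd45a-KO. Their part in the *Neto1* difference was not tested.

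*Neto2* (chr8:88161136-88224653, minus strand) had 47.1, 51.9 and 62.2 CPM (lowest, median and highest) in the libraries labelled Wildtype and 42.4, 48.9 and 56.8 CPM in those labelled Gadd45a-KO. The ranges overlapped for most libraries. The log2 fold change was −0.10 (SE 0.08, 95% interval −0.27 to 0.07, adjusted p = 0.688, edgeR's quasi-likelihood test), and the exact permutation p was 0.314.

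**Figure D3:**
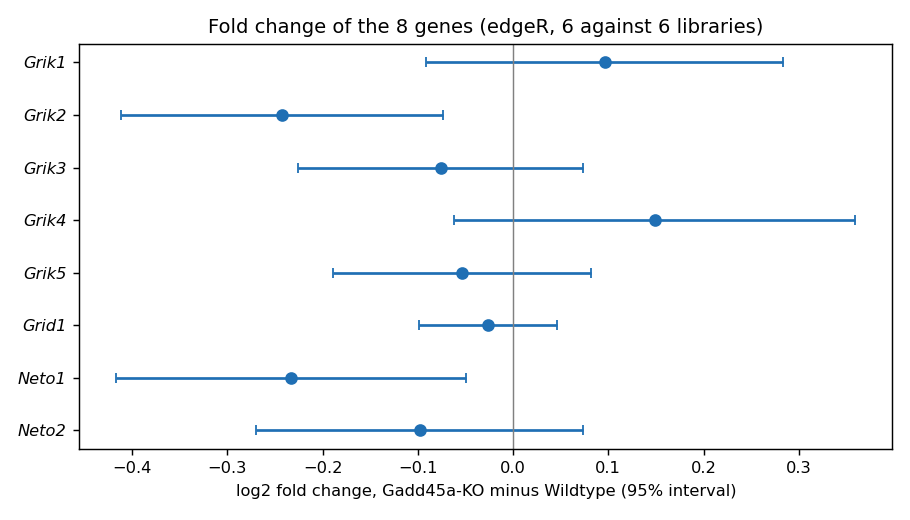
Log2 fold change of each gene, Gadd45a-KO over Wildtype, as a point with its 95% interval from edgeR for 6 against 6 libraries. The intervals of *Grik2* (−0.41 to −0.07) and *Neto1* (−0.42 to −0.05) lie below 0 before adjustment, and the other 6 include 0.

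Since kainate receptors assemble from these subunits, the make-up of the transcripts was described as shares of the summed RPKM of the 5 *Grik* genes in each library. *Grik5* made up 66.4 ± 1.99% (SD, n = 6) of it in the libraries labelled Wildtype and 65.9 ± 2.85% in those labelled Gadd45a-KO. *Grik2* had 11.6 ± 1.54% and 10.04 ± 1.404%, and *Grik4* 13.1 ± 1.84% and 15.0 ± 1.79%. *Grik3* held 6.27 ± 0.618% and 6.11 ± 0.777%, and *Grik1* 2.66 ± 0.195% and 2.92 ± 0.452%. The high-affinity subunits together took 79.5 ± 2.29% and 80.9 ± 2.06%. The lowest library had 75.8%. With the longest transcript in place of all exons, their share was 73.2% and 75.2%. *Neto1* made up 70.5 ± 2.01% and 68.4 ± 2.70% of the summed RPKM of *Neto1* and *Neto2*. Each of these shares overlapped between the labels, and no test was made of them.

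The genes also varied together across libraries of the same label. After removing each label's mean from the log2 CPM, *Grik4* and *Neto1* had a Pearson correlation of 0.93 over the 12 libraries (Spearman 0.85), and 0.86 without the 2 libraries farthest from the median of *Grik4*. Replicate 3 was high and replicate 6 low for both genes under both labels. The next pairs were *Grik4* with *Neto2* (0.64, Spearman 0.63), *Grik2* with *Grik3* (0.60, Spearman 0.60) and *Neto1* with *Neto2* (0.54, Spearman 0.57). Without the 2 farthest libraries these fell to 0.47, 0.48 and 0.32. The lowest value was for *Grik2* with *Grik4*, at −0.54 (Spearman −0.40), and −0.40 without the 2 farthest libraries. These 12 points share a depth and a dissection with every other gene of their library, and all pairs of the 8 genes were computed, so the values are a description without a test.

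Set in the same way against the mean log2 CPM of each marker list, *Grik2* and *Grik3* followed the dentate granule markers, with Pearson correlations of 0.78 and 0.70 (Spearman 0.75 and 0.79), and 0.83 and 0.51 without the 2 libraries farthest from the median. *Neto1* and *Grik4* ran opposite to the microglia markers, at −0.88 and −0.82 (Spearman −0.85 and −0.69), and −0.83 and −0.60 without the 2 farthest. *Grik5* followed the general neuron markers, at 0.85 (Spearman 0.85), also without them. Every gene was set against every list, and these values were picked for their size, without a test. *Neto2* also ran opposite to the microglia markers, at −0.70 (Spearman −0.75), and followed the choroid plexus markers, at 0.70 (Spearman 0.73). With the CA3 markers *Grik4* reached only 0.38 (Spearman 0.41). *Grik2* and *Neto1*, the genes with the lowest fold changes, did not follow each other, at −0.38 (Spearman −0.24).

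**Figure D4:**
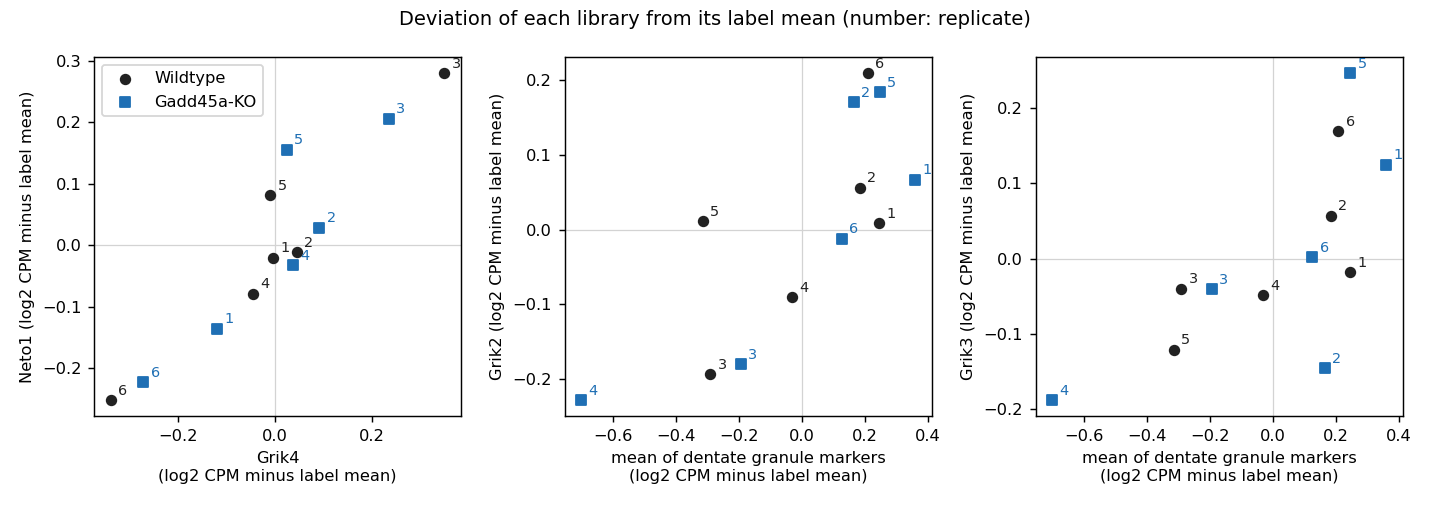
Each library's log2 CPM minus the mean of its label, with circles for Wildtype, squares for Gadd45a-KO and the replicate number beside each point. *Neto1* rises with *Grik4* (Pearson 0.93) in the left panel, and *Grik2* (0.78) and *Grik3* (0.70) rise with the mean log2 CPM of the dentate granule markers in the others.

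Partner genes of these receptors were taken from a list of 27, all of them tested. Of these, 12 had a log2 fold change below 0 and 15 above, with a median of 0.00. At an FDR of 1%, 1 was called lower and 0 higher, beside the 2.62% and 0.0244% of all tested genes. At an unadjusted p under 0.05, 2 were lower and 1 was higher, beside 9.35% and 4.34% of all tested genes (edgeR's quasi-likelihood test).

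The gene called was *Klhl24* (chr16:20097627-20127817, plus strand), which codes for an adaptor of ubiquitin ligases that binds GluK2 and alters kainate currents. It had 66.5, 73.5 and 76.7 CPM (lowest, median and highest) in the libraries labelled Wildtype and 54.6, 59.2 and 66.1 CPM in those labelled Gadd45a-KO. All 6 libraries labelled Gadd45a-KO lay below all 6 labelled Wildtype, as in 3.12% of all tested genes. The log2 fold change was −0.29 (SE 0.05, 95% interval −0.40 to −0.17, adjusted p = 0.0044, edgeR's quasi-likelihood test), and the exact permutation p was 0.00216, the smallest possible. It was still below 0 in all 24 alternatives (−0.34 to −0.25) but was called in 13 of them. Leaving out 1 library in turn kept the call in 4 of 12 fits, with adjusted p from 0.00195 to 0.0202 by edgeR's quasi-likelihood test. Without Gadd45a-KO replicates 2 and 3 the adjusted p was 0.0180, and with the thalamic marker level as a covariate 0.0116, both by edgeR's quasi-likelihood test.

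The other 11 genes of trafficking and turnover were not called, nor were the 5 scaffolds, among them *Dlg4*, which codes for PSD-95. *Kif17*, a kinesin that carries glutamate receptors along dendrites, had an unadjusted p of 0.0454 and a log2 fold change of 0.08 (edgeR's quasi-likelihood test), the one partner above 0 at that level. The editing enzymes gave log2 fold changes of 0.00 for *Adar* and 0.17 (SE 0.11, adjusted p = 0.555, edgeR's quasi-likelihood test) for *Adarb1*, the enzyme of the Q/R site. *Adarb1* had 384 CPM in Gadd45a-KO replicate 3, and without replicates 2 and 3 its log2 fold change was −0.02.

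The 8 ligands and presynaptic partners had the widest intervals, and 6 were below 0. *C1ql3*, a secreted ligand that binds kainate receptors at mossy fibre synapses, had −0.22 (SE 0.13, adjusted p = 0.520, edgeR's quasi-likelihood test). Among the cerebellins, which link to GluD1, *Cbln1* had −0.34 (SE 0.24), *Cbln2* 0.11 (SE 0.15) and *Cbln4* 0.16 (SE 0.15), with adjusted p of 0.611, 0.840 and 0.752 by edgeR's quasi-likelihood test. *Cbln1* rested on 11 to 28 reads per library, and another Ensembl gene of the same symbol overlaps it, so its counts are uncertain.

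**Figure D5:**
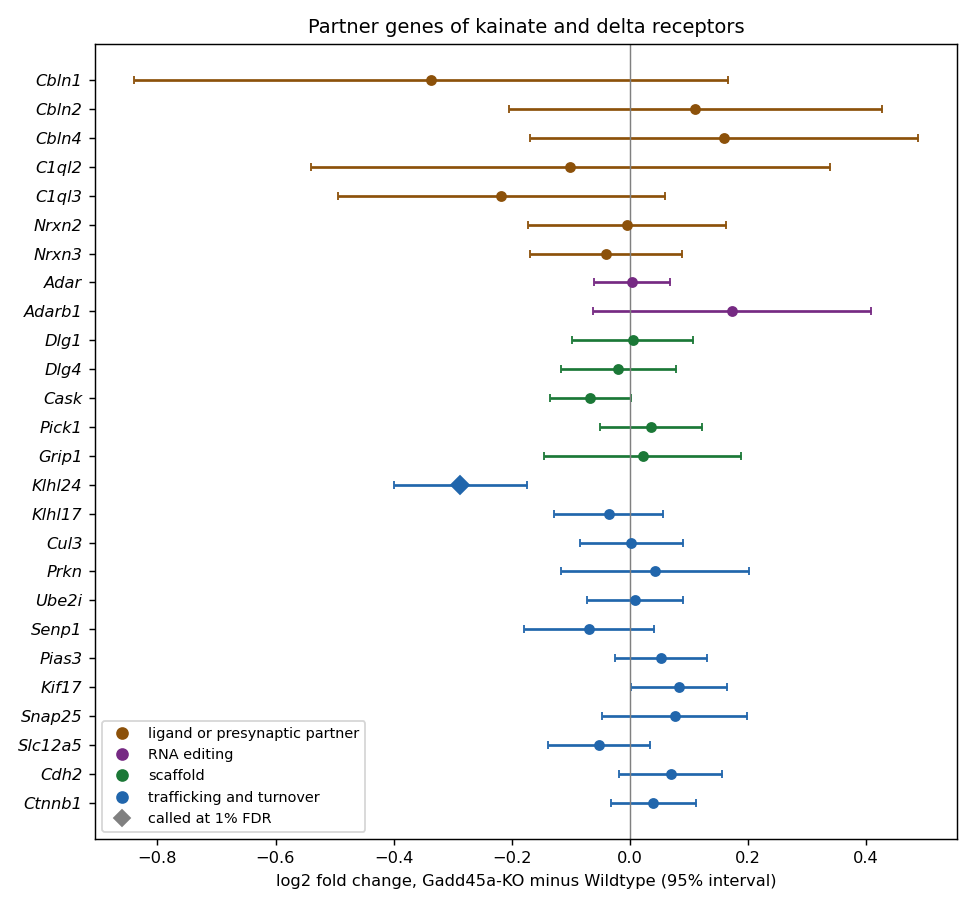
Log2 fold change of the partner genes reported individually, Gadd45a-KO over Wildtype, with 95% intervals from edgeR, coloured by role, and a diamond for a gene called at an FDR of 1%. *Klhl24* at −0.29 is the diamond, and *Cbln1*, with 11 to 28 reads, has the widest interval.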

How the data were processed

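Poly(A) RNA of 12 hippocampi was sequenced, 6 labelled Wildtype and 6 Gadd45a-KO. The authors aligned reads with TopHat 1.4.1 to NCBIM37 and deposited whole read counts per Ensembl gene from HTSeq 0.5.4p3, with no normalization or pooling. Entries without a gene (24.1% to 26.3% of the total) were left out. IDs were named from an earlier Ensembl annotation of the same build (37205 of 37991 matched), which also gave lengths and sequences. The study's methods give a younger age range than the labels.

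In R 4.3.3, edgeR 4.0.16 removed genes of low expression, scaled libraries by TMM and tested all remaining genes between the labels by quasi-likelihood (no covariate, 1% FDR, Benjamini-Hochberg). Log2 CPM used a prior count of 2. Standard errors were taken from the log2 fold change and the F statistic. DESeq2 1.42.0, other filters, scalings and thresholds, a length offset, covariates, the replicate number and left-out libraries were alternatives. Exact permutation tests (two-sided) ran in scipy 1.17.1 under Python 3.11.15. The edgeR step was tested on simulated data. P-values weigh the difference between the labels against the spread between mice within each label.

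The 8 genes and all lists were chosen with earlier results of these data known. Partners named are those called, those at an unadjusted p under 0.05 and those with the largest fold changes, except 1 gene that is counted but not reported here. Library pairs of a label differed by more than counting error (chi-square per degree of freedom 9.12 to 40.6 over 30 pairs), so each library counted as 1 replicate.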

Additional observations from a re-analysis of the deposited data

Results flagged for a closer look

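Gadd45a-KO replicate 1 stood apart from the other 5 libraries of its label in 2 shares. *Grik1* made up 2.06% of the summed *Grik* RPKM there, against 2.89% to 3.34% in the others. *Neto1* made up 63.4% of the summed RPKM of *Neto1* and *Neto2*, against 68.6% to 71.3%. In each case the gap to the nearest library was over 0.65 of the range of the label. These were 2 of 42 groups of 6 examined, and 2.1 are expected by chance at 1 in 20.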

How the results depend on the processing

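None of the 8 genes was called in the reported test, and 1 was called in 2 of the 24 alternatives. With the replicate number as a replicate block, and with that block plus a length offset, it was *Neto1*, and the count 1 (log2 fold change −0.23 and −0.25, adjusted p = 0.00279 and 0.00414, edgeR), where the block called 514 genes in all, and *Grik2* and *Grik4* stayed above 1% FDR (−0.25 and 0.15, adjusted p = 0.0200 and 0.0379). Equal numbers correlated above 0.1 in 5 of 6 pairs and at −0.0761 in the other, and 4 of 12 libraries correlated best with their own number, so they were not taken as paired. The partner count fell from 1 to 0 with the thalamic covariate, without Gadd45a-KO replicates 2 and 3, and with the block without replicates 2 and 3 (the last 2 chosen after seeing the data), and was 0 to 1 with 1 library left out. All genes called numbered 434, against 746 at 5% FDR, 683 with DESeq2, 281 with the length offset, 249 with the thalamic covariate, 202 without Gadd45a-KO replicates 2 and 3, 61 with the block without replicates 2 and 3, and 242 to 470 with 1 library left out (lowest without Wildtype replicate 5).

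Directions near 0 reversed. *Grik5* was −0.0785 to 0.00606 with 1 library left out, and *Grid1* was 0.00263 with the CA1 covariate and 0.00255 with the block without replicates 2 and 3. *Adarb1* was −0.0153 with the thalamic covariate and −0.0235 without Gadd45a-KO replicates 2 and 3. *Cbln2* was −0.00576 with the thalamic covariate, −0.00283 to 0.192 with 1 library left out, −0.0194 without Gadd45a-KO replicates 2 and 3 and −0.14 with the block without them. With the longest transcript, *Grik2* made up 18.3% and 16.0% (Wildtype, Gadd45a-KO), *Grik5* 61.0% and 61.2%, and both high-affinity subunits 73.2% and 75.2%. The causes were not tested, beyond the fewer libraries and other lengths these settings use. *Grik2* kept its direction in 24 alternatives (−0.31 to −0.17, adjusted p 0.0200 to 0.285, edgeR and DESeq2), as did *Neto1* (−0.29 to −0.16). With 6 libraries per label, intervals near 0.2 wide on either side limit *Grik4*, *Grik2* and *Neto1* more than depth does.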

Other observations

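Among all tested genes, those whose log2 CPM followed each of the 8 most closely over the 12 libraries, with label means removed, were read out by Pearson correlation as a description without a test. *Grik2* was followed by *Ankrd6* (0.984, Spearman 0.972), *Stx2* (0.970) and *Tcp11l2* (0.964). *Neto1* was followed by *Nkd2* (0.964, Spearman 0.937), *Scn7a* (0.948), which codes for an atypical sodium channel, and *Ankrd29* (0.945). *Grik4* was followed by *Tuba8* (0.968, Spearman 0.902), an alpha-tubulin gene, *Prss35* (0.961) and *Epdr1* (0.961). *Neto2* was followed by *Fry* (0.968, Spearman 0.937), *Mical3* (0.954) and *Pik3r4* (0.949).

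*Grik5* was followed by *Scap* (0.963, Spearman 0.930), the escort protein of the sterol-sensing SREBP factors, *B4galnt1* (0.956), an enzyme of ganglioside synthesis, and *Ints1* (0.955). *Grik3* was followed by *Nt5c1a* (0.919, Spearman 0.923), *Adamts17* (0.904) and *Tbc1d8b* (0.885). *Grid1* was followed by *Abcg4* (0.925, Spearman 0.888), *Foxp1* (0.899) and *Clcn7* (0.898). *Grik1*, with the fewest reads, had the lowest best value, *4933436C20Rik* at 0.888 (Spearman 0.608). None of these genes was in the partner or marker lists.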
